A study of Homo sapiens with 4 samples.

Results

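NOD1, NOD2, RIPK2, XIAP, ATG16L1, IRGM, LRRK2 and PTPN2 are genes of bacterial peptidoglycan sensing and autophagy that have been tied to the risk of inflammatory bowel disease (IBD), or act directly beside such genes. They were taken by symbol from the deposited transcript tables and each was summed over its transcripts, which gave 8 of 27685 genes and 20 of 63714 transcripts. RNA-seq was performed on HT-29, a human colorectal adenocarcinoma line used as a model of the colonic epithelium. The control vector cells were labelled wild type, and the Myc-TRIM40 cells overexpressed TRIM40, a TRIM-family E3 ubiquitin ligase, with a Myc tag at its N-terminus. The transgene was stably introduced with a retroviral vector, and both kinds of cell were grown in RPMI medium with no treatment. Each of 2 independent experiments had 1 library per condition. The labels do not say whether the cells were a single clone.

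NOD1 and NOD2 are cytosolic receptors for fragments of bacterial peptidoglycan. On binding, they recruit the kinase RIPK2, which XIAP, an E3 ubiquitin ligase, decorates with ubiquitin chains so that NF-κB and MAP kinase signalling can start. ATG16L1 and IRGM act in the autophagy of intracellular bacteria, and LRRK2 is a kinase of Rab GTPases. PTPN2 is a tyrosine phosphatase that dampens JAK-STAT signalling and protects the epithelial barrier. Crohn's disease risk alleles in NOD2 and ATG16L1 drew attention to this pathway in the gut.

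In each library between 60954602 and 67424698 reads were assigned to transcripts. TRIM40 itself had 0 reads in both control libraries, 272646 reads with Myc-TRIM40 in experiment 1 and 110665 in experiment 2, at least 88493-fold and 36556-fold higher against a floor of 3 reads. These data do not show whether the reads came from the transgene alone. The 10 colonic epithelial markers summed to between 12378 and 17817 CPM (read counts scaled to the same library size) per library. The 17 markers of leukocytes, fibroblasts, endothelium, muscle and glia summed to between 21.3 and 40.9 CPM, 7 of them had no reads in any library, among them CD3E and MS4A1, and the leukocyte marker PTPRC had at most 4 reads. Others were detected in every library. CD68 had between 751 and 1379 reads, COL1A1 between 123 and 352, ITGAM between 106 and 390 and CD14 between 148 and 297. The epithelial marker CDX1 had only 36 to 46 reads, whereas KRT8 alone had between 6220 and 8683 CPM. The sum of the 17 markers was highest in the Myc-TRIM40 library of experiment 1. In bulk RNA, fewer cells of a type and less RNA per cell cannot be told apart.

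Sequences are shown first where the results turn on them, because the reads of PTPN2, XIAP and ATG16L1 were split among transcript variants that differ by the stretches printed here. They were read from GENCODE release 29 on GRCh38, whereas the deposited positions are on hg19. ATG16L1, the autophagy protein that directs LC3 lipidation, has a cassette exon of 57 bases at chr2:233273721-233273777 (+ strand). Variant 2 was 57 bases shorter than variant 1 in the deposited table, the model linked to variant 3 also lacks the exon, and variants 4 and 5 are linked by GENCODE to the same model as variant 1, from which their deposited lengths differed by 2 and 4 bases. PTPN2 has alternative 3′ ends. Variants 1 and 5 stop at chr18:12794278-12794383 (- strand), with a hydrophobic tail that retains the enzyme at the endoplasmic reticulum, and variants 2, 3 and 4 share an end that stops at chr18:12785823-12785844, which in variant 2 gives the shorter, nuclear form. The coding bases particular to each end are shown with the stop codon in capitals. Variant 4 has an additional exon of 69 bases at chr18:12819214-12819282, which matches its 69 extra bases in the table. XIAP variant 3, listed as non-coding, was 909 bases shorter than variant 1, the exact length of the exon at chrX:123885631-123886539 that holds the start codon. The first 60 coding bases of that exon, chrX:123885663-123885722 (+ strand), are shown with the start codon in capitals.
ATG16L1 cassette exon: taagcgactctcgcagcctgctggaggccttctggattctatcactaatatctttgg
PTPN2 variant 1 end: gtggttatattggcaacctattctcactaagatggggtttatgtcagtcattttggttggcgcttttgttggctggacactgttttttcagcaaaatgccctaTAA
PTPN2 variant 2 end: gccaagattgacagacaccTAA
PTPN2 variant 4 exon: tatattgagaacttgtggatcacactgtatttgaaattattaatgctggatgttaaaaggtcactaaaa
XIAP coding start: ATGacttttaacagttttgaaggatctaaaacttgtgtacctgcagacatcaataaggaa

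The receptors, the adaptor kinase, the ubiquitin ligase, ATG16L1 and PTPN2 differed widely in level. Levels across genes are given in FPKM, reads scaled to transcript length and library size, which the authors computed separately in each experiment. PTPN2 was the highest, at 23.7 FPKM in control 1 and 25.5 in Myc-TRIM40 1, and 36.0 in control 2 and 26.7 in Myc-TRIM40 2. ATG16L1 had 11.2, 11.9, 9.90 and 11.2 FPKM in the same order. RIPK2 had 7.96, 10.6, 11.0 and 9.32 FPKM. XIAP had 8.66, 9.33, 7.91 and 10.3 FPKM. ATG16L1 was above XIAP in each of the 4 libraries, although their ranges across libraries overlapped, and the place of RIPK2 relative to both changed between libraries. NOD1 was lowest of the genes with clear signal, at 1.99, 2.33, 2.08 and 2.53 FPKM. Among the 14868 genes that passed the filter on low counts, whose median level was 7.03 FPKM, PTPN2 stood at percentile 80.0 and NOD1 at percentile 29.5.

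**Figure D1:**
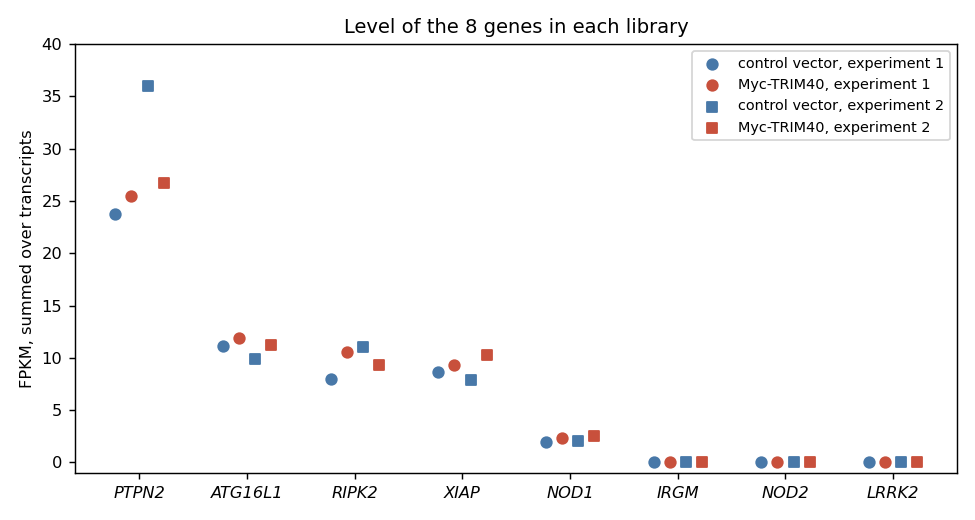
Level of each of the 8 genes in FPKM (linear axis) in the 4 libraries; circles are experiment 1, squares experiment 2, blue control vector and red Myc-TRIM40. PTPN2 lies between 23.7 and 36.0 FPKM, and NOD2, IRGM and LRRK2 lie at or near 0 in all 4 libraries.

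The remaining receptor, IRGM and LRRK2 were at the limit of detection. NOD2, the receptor for muramyl dipeptide, had 0, 8, 0 and 0 reads in control 1, Myc-TRIM40 1, control 2 and Myc-TRIM40 2. IRGM, an immunity-related GTPase of autophagy, had 6, 16, 0 and 0 reads. All 6 reads of the control were assigned to its variant 2 and all 16 of the Myc-TRIM40 library to its variant 1. LRRK2 had 0 reads in all 4 libraries, which allows up to 3 reads each, or at most 0.0053 FPKM. For NOD2 a count of 0 allows up to 0.0111 FPKM and for IRGM up to 0.0289 FPKM. These 3 genes did not pass the filter, so that 5 of the 8 genes were tested. IRGM lies at chr5:150226085-150281964 (hg19). The span of its variant 1 overlaps ZNF300, which had between 80 and 101 reads. Variant 2 ends at 150228231, before ZNF300 begins at 150273954. How the counting treated strand is not given in the sources used here.

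The upstream sequences of the detected and the undetected receptor differ in base composition. Shown are the 250 bases before the RefSeq start of NOD1 at chr7:30478785-30479034 (- strand) and of NOD2 at chr16:50696698-50696947 (+ strand), on GRCh38, with each CG pair in capitals.
NOD1 upstream: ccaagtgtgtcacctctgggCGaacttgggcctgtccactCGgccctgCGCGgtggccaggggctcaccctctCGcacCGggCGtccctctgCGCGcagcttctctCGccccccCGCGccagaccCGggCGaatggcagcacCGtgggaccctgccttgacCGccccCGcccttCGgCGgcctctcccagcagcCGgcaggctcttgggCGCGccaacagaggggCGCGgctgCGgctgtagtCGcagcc
NOD2 upstream: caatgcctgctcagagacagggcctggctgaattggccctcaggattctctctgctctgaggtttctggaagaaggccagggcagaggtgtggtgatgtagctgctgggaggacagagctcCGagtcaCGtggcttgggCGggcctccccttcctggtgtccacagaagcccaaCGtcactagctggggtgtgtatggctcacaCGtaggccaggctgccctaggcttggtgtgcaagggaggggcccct
The stretch before NOD1 held 26 CG pairs, and 80.4% of 35114 RefSeq promoters held fewer, whereas the stretch before this NOD2 start held 5. The median promoter held 11. LRRK2, which had no reads, had 25 CG pairs. The only window listed for PTPN2, the highest in level, had 1. PTPN2 variants 1, 2, 3 and 4 start at chr18:12884334 and variant 5 at chr18:12840961 (hg19, - strand). Which of these starts the window belongs to is not given here. The starts listed for XIAP had 4, 12 and 23, that of ATG16L1 had 23, and the other start listed for NOD2 had 4. No start was listed for RIPK2 or IRGM. A relation of CG content to detection was not tested. The STAT site TTCNNNGAA was not present, on either strand, in the listed promoters of ATG16L1, LRRK2, NOD1, NOD2, PTPN2 or XIAP, from 250 bases before to 50 after the start. It was present in 7.66% of all promoters, and its absence here says only that these letters are not in these windows.

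With TRIM40 overexpression, 0 of the 5 tested genes passed the test, against a background of 9 of 14868 genes (0.0605%) in edgeR's quasi-likelihood test with the experiment as a block. At an unadjusted p under 0.05 the counts were 0 of the 5 and 675 of 14868 (4.54%). DESeq2 also called 0 of the 5 (0.363% of all genes), as did limma on log2(FPKM + 1) (0.0202%) and upper-quartile scaling (0.0471%). TRIM40 itself was among the genes called in each of these fits. The edgeR fit with a length trend removed called 0 of the 5 and 1 gene in all (0.00673%). That gene was TRIM40, so this fit gives no background of other genes. The fit without the block and the fit without a filter called 0 genes in all, with 153 and 447 at an unadjusted p under 0.05. TRIM40 was therefore missed by both (edgeR adjusted p = 0.0608 and 0.126). In the manner of the study, which took genes that changed in common, 0 of the 8 genes had FPKM + 1 differing 1.5-fold or more in the same direction in both experiments, against 86 of 27685 (0.311%; 0.26% higher). NOD2, IRGM and LRRK2, with at most 0.0704 FPKM in any library, could not have reached this ratio. Among the genes tested in edgeR, the counts were 0 of the 5 and 81 of 14868 (0.545%). The 95% intervals given with each gene show the sizes of change that the edgeR fit allows.

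NOD1 (chr7:30464143-30518393, hg19) had 9.16 CPM in the control and 10.5 CPM with Myc-TRIM40 in experiment 1, and 10.2 and 11.4 CPM in experiment 2. Both Myc-TRIM40 libraries were above both controls. The log2 fold change was 0.18 (SE 0.22, edgeR adjusted p = 0.904), with a 95% interval from -0.32 to 0.68, or a fold of 0.799 to 1.60. The experiments gave log2 ratios of 0.19 and 0.16.

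RIPK2 (chr8:90769975-90803292, hg19), the kinase that NOD1 and NOD2 share, went opposite ways in the 2 experiments. It had 21.1 CPM in the control and 27.4 CPM with Myc-TRIM40 in experiment 1, and 31.1 and 24.0 CPM in experiment 2. The within-experiment log2 ratios were 0.37 (95% counting interval 0.27 to 0.48) and -0.37 (-0.47 to -0.27). The counting intervals of the experiments did not overlap, and the 2 controls themselves differed by 1.47-fold. The log2 fold change over both experiments was 0.0018 (SE 0.25, edgeR adjusted p = 0.999), with an interval from -0.56 to 0.56, and its sign depended on the fit.

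XIAP (chrX:122993662-123047829, hg19) had 69.5 CPM in the control and 73.9 CPM with Myc-TRIM40 in experiment 1, and 70.2 and 80.1 CPM in experiment 2. The Myc-TRIM40 libraries were again above both controls. The log2 fold change was 0.14 (SE 0.21, edgeR adjusted p = 0.925), with an interval from -0.34 to 0.62. Non-overlapping conditions, seen for NOD1 and XIAP, were found in 20.7% of all tested genes.

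ATG16L1 (chr2:234160217-234204320, hg19) had the smallest ratio of highest to lowest CPM among the 5 tested genes, at 38.2 and 40.1 CPM in experiment 1 and 36.2 and 37.7 CPM in experiment 2. Its log2 fold change was 0.06 (SE 0.21, edgeR adjusted p = 0.969; interval -0.42 to 0.54). PTPN2 (chr18:12785477-12884334, hg19) had 51.3 and 49.8 CPM in experiment 1 and 68.6 and 63.1 in experiment 2. The libraries of PTPN2 separated by experiment rather than by condition, with controls that differed by 1.34-fold. Its log2 fold change was -0.08 (SE 0.21, edgeR adjusted p = 0.959; interval -0.56 to 0.39).

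**Figure D2:**
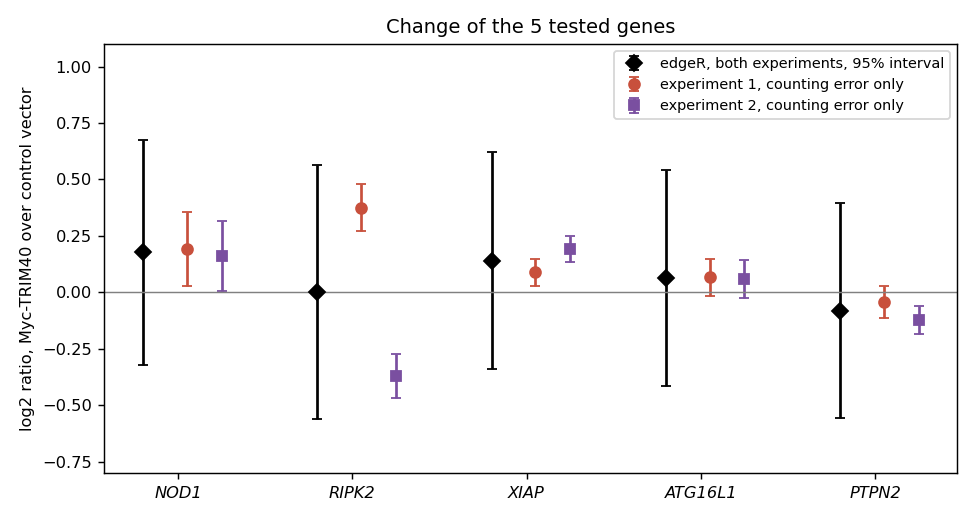
Log2 ratio of Myc-TRIM40 over control vector for the 5 tested genes; black diamonds are the edgeR estimate over both experiments with its 95% interval, and coloured points are single experiments with intervals for counting error only. Every black interval includes 0, and RIPK2 lies at 0.37 in experiment 1 and -0.37 in experiment 2.

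The ratio of Myc-TRIM40 over control varied with transcript length in experiment 2. Over all tested genes, sorted by length into 10 groups, the median log2 ratio went from -0.54 in the shortest to 0.58 in the longest group of experiment 2, and from -0.05 to 0.03 in experiment 1. XIAP, with a read-weighted length of 7950 bases, was in the longest group, and its ratio in experiment 2, 0.19, was below the median of that group. NOD1, at 4496 bases, was in a group with a median of 0.27 and had a ratio of 0.16. When this length trend was removed, which was decided once the data had been seen, the log2 fold change of NOD1 was 0.04 (SE 0.16, edgeR adjusted p = 0.973) and that of XIAP turned to -0.14 (SE 0.14, edgeR adjusted p = 0.896). The directions of NOD1, RIPK2, ATG16L1 and PTPN2 were kept in that fit.

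**Figure D3:**
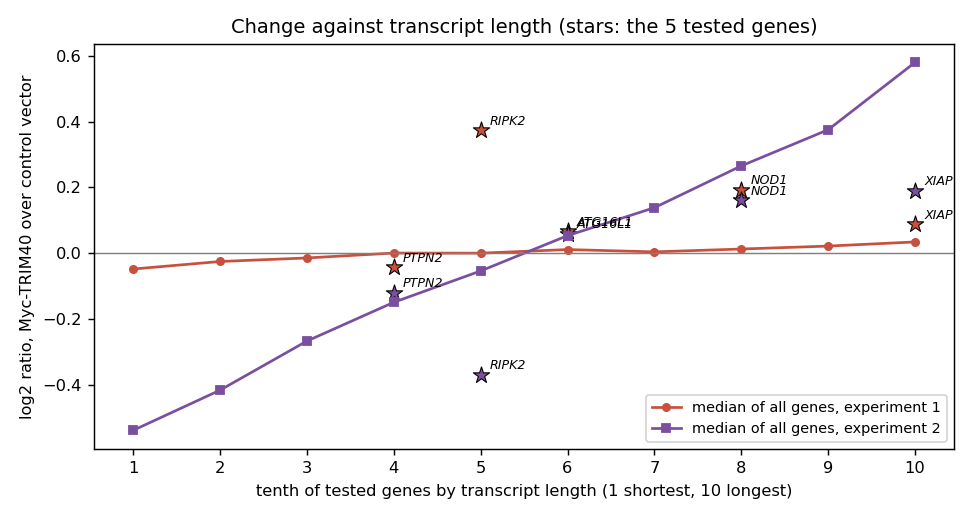
Median log2 ratio of Myc-TRIM40 over control vector (y axis) in 10 groups of tested genes by transcript length (x axis), for experiments 1 and 2; stars are the 5 tested genes. The experiment 2 line climbs from -0.54 to 0.58, and the XIAP star of experiment 2 lies below it at 0.19.

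Although summed PTPN2 reads did not pass the test, their assignment to its variants differed greatly between libraries. Variant 2, with the end of the nuclear form shown above, took 54.6% of the reads in control 1 and 69.7% in Myc-TRIM40 1. In experiment 2 its share was 86.6% in the control and 19.7% with Myc-TRIM40. The change thus went opposite ways in the 2 experiments. The variants with the endoplasmic reticulum tail, 1 and 5, together took 37.7%, 25.6%, 4.83% and 54.9% in control 1, Myc-TRIM40 1, control 2 and Myc-TRIM40 2. Variant 4, with the 69-base exon, took 7.41%, 4.16%, 8.28% and 23.0%. Exact 95% binomial intervals were within 2.05 percentage points of each share printed for these 3 genes. They cover counting error only, whereas the splitting of reads among overlapping variants is itself an estimate.

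The mean length of the PTPN2 transcripts, weighted by reads, was 2349 and 2133 bases in experiment 1 and 1788 and 2627 bases in experiment 2. FPKM and reads gave different ratios for PTPN2, with log2 values of 0.10 by FPKM and -0.04 by reads in experiment 1 and -0.43 and -0.12 in experiment 2. Over 6174 genes with at least 2 transcripts and 500 reads in each library, a median of 7.47% of reads moved between transcripts in experiment 2. For PTPN2 it was 66.9%, and 2.92% of these genes moved more. Between the 2 controls PTPN2 moved by 32.9%, against a median of 9.11%.

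XIAP variant 3, which lacks the start-codon exon shown above, took 64.6% of XIAP reads in control 1 and 54.6% in Myc-TRIM40 1, but 29.1% in control 2 and 66.1% in Myc-TRIM40 2. Here too the experiments went opposite ways, and the 2 controls differed by about as much as the conditions of experiment 2, at 36.4% and 37.0% of reads moved. For ATG16L1, variants linked to the cassette exon (1, 4 and 5) took 61.1% and 47.7% in experiment 1 and 33.4% and 31.8% in experiment 2. Their share was lower with Myc-TRIM40 in both experiments. The differences were -13.4 and -1.58 percentage points, and the control of experiment 2 differed from that of experiment 1 by -27.7 points, more than either.

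**Figure D4:**
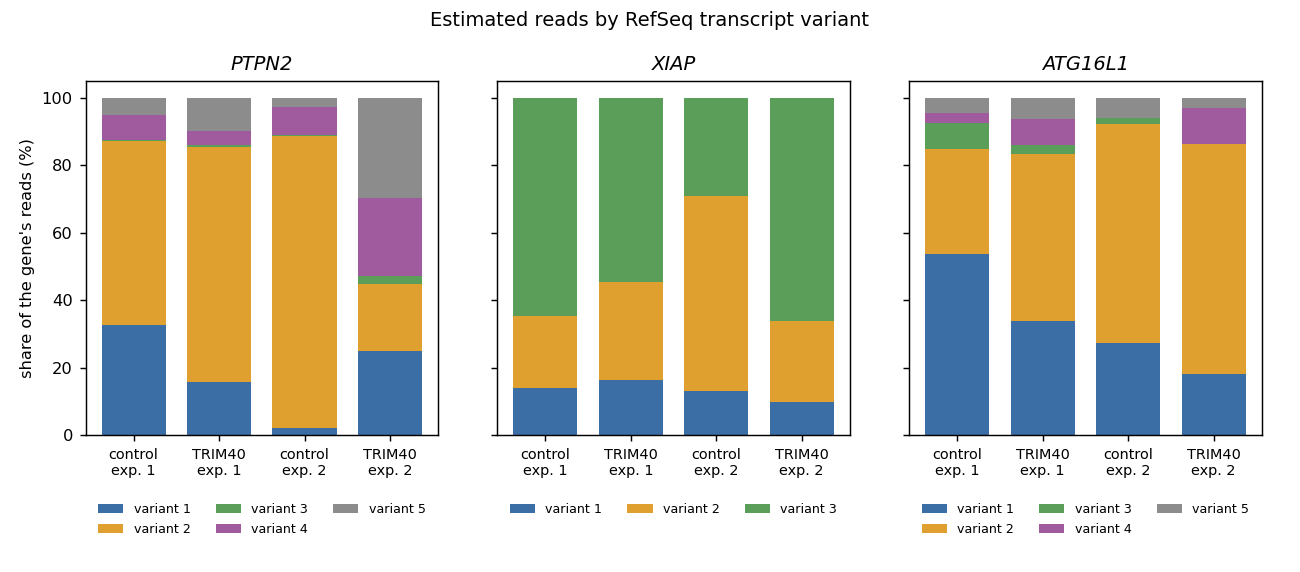
Share of each gene's reads (%) assigned to its RefSeq transcript variants in the 4 libraries, stacked to 100. PTPN2 variant 2 goes from 86.6% to 19.7% in experiment 2 but from 54.6% to 69.7% in experiment 1, and XIAP variant 3 also moves opposite ways.

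The rest of the NOD pathway was read from lists chosen with earlier results of these data known. In edgeR's adjusted test 0 of the 28 tested NOD signalling genes (transporters, adaptors, ubiquitin enzymes and kinases) were called, 4 passed an unadjusted p under 0.05, all higher (3.41% of all genes did so), and DESeq2 called 1. The median log2 fold change of the list was 0.14, against 0.04 for all genes tested. TNFAIP3, the A20 deubiquitinase that restrains NF-κB, had 100 reads in the control and 640 with Myc-TRIM40 in experiment 1, then 72 and 140 (log2 fold change 1.82, edgeR adjusted p = 0.469). SLC15A3, a lysosomal transporter of muramyl dipeptide, had 0 reads in the control and 499 with Myc-TRIM40 in experiment 1, at least 162-fold higher against the floor of 3 reads, but 11 and 31 reads in experiment 2. Among the genes with the same direction in both experiments, the lowest were SHARPIN, of the linear ubiquitin ligase complex, with a log2 fold change of -0.21, and the adaptor CARD9 at -0.11. The log2 ratio of SHARPIN was -0.0012 in experiment 1, which is almost no change, and -0.41 in experiment 2. BIRC3, a ubiquitin ligase of the same family as XIAP, was the gene that DESeq2 called, and is named here after its values were seen. It went from 221 to 1308 and from 353 to 651 reads (DESeq2 adjusted p = 0.00916).

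The target genes of NOD signalling formed a separate list. Of 14 listed, 10 were tested, edgeR and DESeq2 called 0 of them, and 2 passed an unadjusted p under 0.05. Their median log2 ratio was 1.18 in experiment 1 and -0.14 in experiment 2, with 10 and 4 of the 10 above 0. CCL20, a chemokine for dendritic cells and lymphocytes, had 25 and 281 reads in experiment 1 but 73 and 98 in experiment 2. ICAM1, an adhesion molecule, went from 340 to 778 and from 263 to 375 reads. The listed targets IL6, CCL2 and DEFB4A had 0 reads in all 4 libraries.

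Around ATG16L1, the 31 tested core autophagy genes had a median log2 fold change of 0.03, with 0 called by edgeR or DESeq2 and 1 at an unadjusted p under 0.05. That was WIPI1, which binds phosphoinositide on the forming autophagosome, with 206 and 423 reads in experiment 1 and 195 and 245 in experiment 2. ULK2, an initiating kinase, had the lowest log2 fold change of those named, -0.96, from 47 to 28 and from 46 to 21 reads. The list median was 0.10 in experiment 1 and -0.15 in experiment 2. Of 12 cargo receptor and fusion genes, 0 were called by edgeR or DESeq2 and 2 passed an unadjusted p under 0.05, the receptor OPTN with 1075 and 2759 reads in experiment 1 and 1402 and 1524 in experiment 2, and the tethering factor EPG5 with 1325 and 1714, then 731 and 1194 reads. Their median log2 fold change was 0.18.

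Although LRRK2 was not detected, 8 of its 9 listed Rab substrates and relatives were tested. Neither edgeR nor DESeq2 called any, 0 passed an unadjusted p under 0.05, and their median log2 fold change was 0.07. RAB10, a main LRRK2 substrate, had 11932 and 11830 reads in experiment 1 and 14409 and 13894 in experiment 2. RAB12 had 1931 and 1902, then 3475 and 2771 reads.

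Of the 9 tested relatives and substrates of PTPN2, edgeR called 0, 1 passed an unadjusted p under 0.05 and DESeq2 called 1. The median log2 fold change of the list was 0.29, with 0.11 in experiment 1 and 0.53 in experiment 2, and all 9 estimates over both experiments were above 0, as were 54.9% of all genes tested. In experiment 1 alone 5 of the 9 were above 0, and the median was 0.17 with the length trend removed. JAK3, a cytokine receptor kinase that PTPN2 dephosphorylates, had 31 and 50 reads in experiment 1 and 25 and 51 in experiment 2 (log2 fold change 0.83, edgeR adjusted p = 0.888). PTPN6, a related phosphatase of blood cells and epithelia, had 1871 and 2070, then 1564 and 1663 reads, with a log2 fold change of 0.09. For reference, the 12 interferon-stimulated genes had a median log2 fold change of 1.96, with 3.00 in experiment 1 and 0.80 in experiment 2. edgeR called 0 of them, 10 passed an unadjusted p under 0.05, DESeq2 called 3, and 7 were higher in both experiments by the 1.5-fold rule. The median of the 5 tested NOD and autophagy genes was 0.06. Those interferon genes were chosen knowing that they moved, so their direction is no independent evidence.

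**Figure D5:**
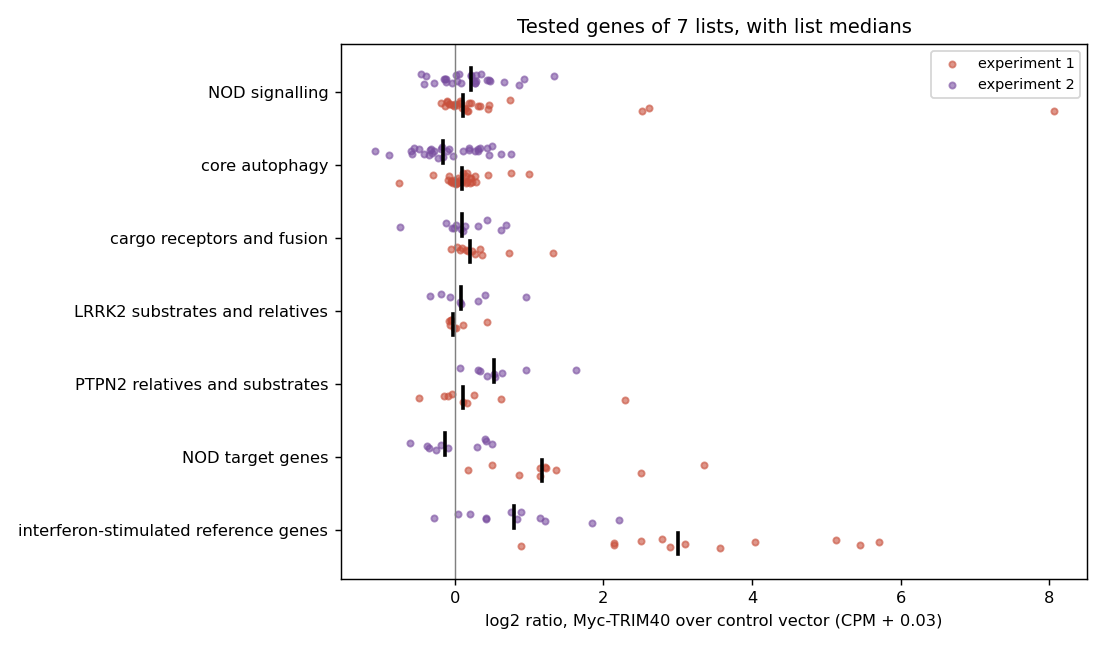
Log2 ratio of Myc-TRIM40 over control vector (CPM with 0.03 added) for each tested gene of 7 lists, in experiment 1 (red) and experiment 2 (purple), with list medians as black bars. The interferon list has medians of 3.00 and 0.80 and the core autophagy list 0.10 and -0.15; the red point farthest to the right is SLC15A3, whose place depends on the 0.03 because its control had 0 reads.

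Among 110 list genes, the pattern over the 4 libraries most like each tested gene was measured as the root mean square difference in log2 CPM after centring. It was TAX1BP1 for NOD1 (0.04), MAP1LC3B for RIPK2 (0.06), MAP3K7 for XIAP (0.06), TRIM27 for ATG16L1 (0.03) and SLC15A2 for PTPN2 (0.08). Of all tested genes, 0.343%, 0.269%, 1.47%, 0.262% and 4.24% lay closer still, in the same order. The next list genes were MAP3K7, ATG101, UVRAG, SNAP29 and BECN1, in the same order. Patterns over 4 libraries are a description only.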

How the data were processed

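RNA-seq of 2 control vector and 2 Myc-TRIM40 libraries of HT-29 cells was analysed. Libraries were made with a TruSeq Stranded mRNA kit, and the submitters' processing notes name hg19, HISAT2 2.1.0 and StringTie 1.3.4d. The authors deposited, per RefSeq transcript, estimated counts written as whole numbers, FPKM and, for experiment 2 only, TPM, which was not used. The other deposited value was transcript length. Filters are not given in the sources used here. Each table holds 1 experiment, so FPKM was scaled separately in each.

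Transcripts were summed by gene ID. The estimated counts were tested with edgeR 4.0.16 in R 4.3.3 (glmQLFit, glmQLFTest, filterByExpr, TMM, Benjamini-Hochberg, called at an adjusted p under 0.05), with the experiment as a block, because each experiment has its own control and table. With 1 residual degree of freedom, the spread rests largely on the prior (median 7.44 degrees of freedom). Deviations of libraries with the same number correlated at 0.449. P-values refer only to the spread between these libraries, and in edgeR that spread is largely borrowed across genes through the prior. Ratios within an experiment have exact binomial intervals. Alternatives were no block, DESeq2 1.42.0, limma 3.58.1 on log2(FPKM + 1), upper-quartile scaling, no filter, each experiment alone and, chosen after seeing the data, removal of a lowess trend (span 0.3) on transcript length. On simulated counts with a dispersion of 0.05, edgeR with the block found 20 of 100 genes changed 2-fold and 95 of 100 changed 4-fold. DESeq2 found 17 and 85. Without the block, edgeR found 0 and 0. The limma fit found 29 and 93, but called 48 unchanged genes, against 4 for edgeR with the block. A 2-fold change in a single gene would thus mostly be missed by these fits. The members and lists were chosen with earlier results of these data known. Genes named from each list were those called, those changed in common, and the 2 highest and 2 lowest with the same direction in both experiments, of which the text gives a part. A part of what this rule selects is not reported here.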

Additional observations from a re-analysis of the deposited data

How the results depend on the processing

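Of the 30 values of the 5 tested genes under other fits, 25 kept their direction and none was called. RIPK2 changed sign, to a log2 fold change of -0.0216 without the replicate block, -0.0244 with DESeq2, -0.0094 with upper-quartile scaling and -0.0012 without a filter, and from -0.37 to 0.37 when either experiment was left out. XIAP turned to -0.14 with the length trend taken out. The genes called higher and lower, 6 and 3 of 14868, became 0 and 0 without the block, 45 and 9 with DESeq2, 3 and 0 with limma, 0 and 0 without a filter, and 1 and 0 with the length trend taken out. None of these fits, with or without the block, called a member that it tested. The fits without the block and without a filter called 0 genes in all, so they cannot set the members apart from other genes. The fit with the length trend taken out called TRIM40 alone, so it cannot do so either.

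With either experiment left out, list medians ranged from 0.11 to 0.22 for NOD signalling, -0.15 to 0.10 for core autophagy, 0.0933 to 0.20 for cargo receptors and -0.0293 to 0.0783 for LRRK2 substrates; the NOD signalling median was 0.0201 with the length trend taken out. DESeq2 called 1 NOD signalling gene, 1 PTPN2 relative and 3 interferon genes. The genes changed in common, 72 higher and 14 lower, became 380 and 106 with a pseudocount of 0.1, 20 and 5 at 2-fold, and 459 to 1303 and 129 to 441 in single experiments. By FPKM, log2 ratios in experiments 1 and 2 were 0.23 and 0.29 for NOD1, 0.0934 and 0.18 for ATG16L1, 0.10 and -0.43 for PTPN2, and 0.37 for XIAP in experiment 2. The cause of these shifts was not tested. NOD2, IRGM and LRRK2 had too few reads for the filter, so no change in them was tested in the filtered fits.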
